A study of Mus musculus with 3 samples.

Results

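The Tribbles genes Trib1, Trib2 and Trib3 encode the mouse family of pseudokinases, and all 3 were measured, by 1 probe set each, among 18820 genes with a probe set of their own. They were chosen by gene symbol, and with the knowledge that Trib1 and Trib3 differed between the arrays in opposite directions. Their differences between the fatty acids are therefore given as a description and carry no test. RAW264.7 cells, a mouse macrophage-like line maintained as a transformed culture, received 1 fatty acid at 500 µM for 6 hours, carried on bovine serum albumin at a ratio of 2 to 1. The fatty acids were palmitate, which is saturated, elaidate, which is monounsaturated with a trans double bond, and oleate, the cis isomer of elaidate. Each fatty acid has 1 array, all 3 groups share the cell line and the albumin carrier, and there is no array of untreated cells. Differences between arrays thus have no replicate error and no interval, and none of them is a response relative to no fatty acid.

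Tribbles proteins keep the fold of a protein kinase but have little or no catalytic activity, and they act as scaffolds. Their C-terminal tail recruits the ubiquitin ligase COP1, and the pseudokinase fold presents a client protein to it. TRIB1 and TRIB2 direct degradation of the myeloid transcription factor C/EBPα in this way. TRIB1 is needed for the differentiation of some tissue-resident macrophages in the mouse. TRIB3 is induced by the transcription factors ATF4 and CHOP when translation factor eIF2α is phosphorylated, and it has been described as binding AKT and as feeding back on ATF4 and CHOP.

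ATF4 acts at composite C/EBP-ATF elements, for which the letters TGATGNAA were searched on both strands of RefSeq promoter windows of the mouse build GRCm38.p6. Each window runs from 250 bases before to 50 bases after an annotated gene start. Of 27025 genes, 4.51% held TGATGNAA in a window and 1.03% held its stricter form TGATGCAA, every match to the second being a match to the first. The table holds windows for Trib2 and Trib3. The Trib3 window held TGATGNAA on the reverse strand, beginning at base 15 after the start, and did not hold TGATGCAA. The Trib2 window held neither. Of 17 listed ATF4 target genes with a window, 7 held TGATGNAA and 5 of them TGATGCAA. Of 12 genes listed with the inducers of Trib3, 2 held both, Atf3 and Nupr1. In these listed genes every match began before the start, from base -200 in Vldlr to base -23 in Asns, unlike that of Trib3. A match describes letters in a window and shows no binding. The targets are a list of known ATF4 genes, so their share was not an independent observation. The motifs were chosen with these promoters already seen, so the same holds for the Trib3 match.
The stretches of 30 bases around the match are shown for Trib3 and for 5 of the genes with higher values on the palmitate array, to let the Trib3 letters be set beside theirs. All read in the direction of the gene, and capitals mark the motif.
Trib3, chr2:152344028-152344057, minus strand: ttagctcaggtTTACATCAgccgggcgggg
Pck2, chr14:55540152-55540181, plus strand: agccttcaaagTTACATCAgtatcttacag
Chac1, chr2:119351038-119351067, plus strand: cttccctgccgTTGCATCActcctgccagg
Nupr1, chr7:126625562-126625591, minus strand: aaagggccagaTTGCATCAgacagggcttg
Atf3, chr1:191183425-191183454, minus strand: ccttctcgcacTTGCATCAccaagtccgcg
Slc7a11, chr3:50443661-50443690, minus strand: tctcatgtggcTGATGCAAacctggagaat
The Trib3 and Pck2 stretches share the letters TTACATCA, where Chac1, Nupr1 and Atf3 have TTGCATCA. Slc7a11 held the motif on both strands and the forward match is shown.
The 250 bases before the Trib3 start are given because this gene carried the widest difference of the family.
Trib3 upstream, chr2:152344061-152344310, minus strand: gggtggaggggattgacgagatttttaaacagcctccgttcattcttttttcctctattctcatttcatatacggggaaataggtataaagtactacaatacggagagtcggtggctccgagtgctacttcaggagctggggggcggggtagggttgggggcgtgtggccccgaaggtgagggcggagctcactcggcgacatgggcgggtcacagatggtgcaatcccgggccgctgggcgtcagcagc
This stretch had a G and C content of 57.2% with 16 CpG pairs, and the equal stretch before Trib2 had 73.6% with 34.

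The arrays carried the pattern of a macrophage line. Values are log2 expression values from RMA, a procedure that corrects background, equalises the distributions of arrays and then combines the probes of each probe set into 1 value. The filter on low values keeps genes whose mean over the arrays reaches 4.14, the median of the gene means, and 9410 genes passed it. All 10 macrophage markers passed, with log2 values of 5.57 to 11.77 under palmitate, 7.30 to 11.77 under elaidate and 7.67 to 11.77 under oleate. Of the markers of other cells, 2 of 5 fibroblast genes (Col1a1 and Acta2), 0 of 4 measured lymphocyte genes and 1 of 5 adipocyte or hepatocyte genes (Alb) passed. The summed log2 level of the macrophage markers was 94.1 under palmitate, 98.4 under elaidate and 99.4 under oleate, and Mertk, a receptor for dying cells, differed most.

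Trib3 was the family member with the widest difference. It had a log2 value of 9.71 under palmitate, 6.75 under elaidate and 6.03 under oleate. Palmitate stood far above the other 2 arrays, and elaidate stood above oleate. The log2 difference was 3.68 for palmitate minus oleate, or 12.8-fold, and 2.96 for palmitate minus elaidate, or 7.79-fold. Elaidate minus oleate, the trans against the cis isomer at the same dose and time, was 0.72, or 1.64-fold. Among the 9410 genes past the filter these were the second highest, the fourth highest and the 36th highest difference. In bulk cultures a change in how many cells express a gene and a change in RNA per cell cannot be told apart.

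Trib1 ran the other way. It had a log2 value of 5.46 under palmitate, 6.13 under elaidate and 6.84 under oleate. The values are spaced almost evenly, with elaidate in the middle. The log2 difference was -1.38 for palmitate minus oleate, so that Trib1 was 2.61-fold lower on the palmitate array. Palmitate minus elaidate was -0.67, or 1.59-fold lower on the palmitate array, and elaidate minus oleate was -0.71, or 1.64-fold lower on the elaidate array. Trib1 had the second lowest difference between elaidate and oleate, the 40th lowest between palmitate and oleate and the 293rd lowest between palmitate and elaidate. Elaidate and oleate were thus separated by a log2 distance of the same size for Trib1 and Trib3, with opposite sign, whereas palmitate stood farther out for Trib3.

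Trib2 had the same log2 value, 2.997, on the palmitate, elaidate and oleate arrays, below the filter. Such equality, to within 1e-06, held for 75.6% of the 9410 genes below the filter and 27.5% of the 9410 genes past it. The summary step of RMA can return 1 value for several arrays, so an equal value does not show that Trib2 was unaffected. Trib2 does not enter the counts of genes.

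**Figure D1:**
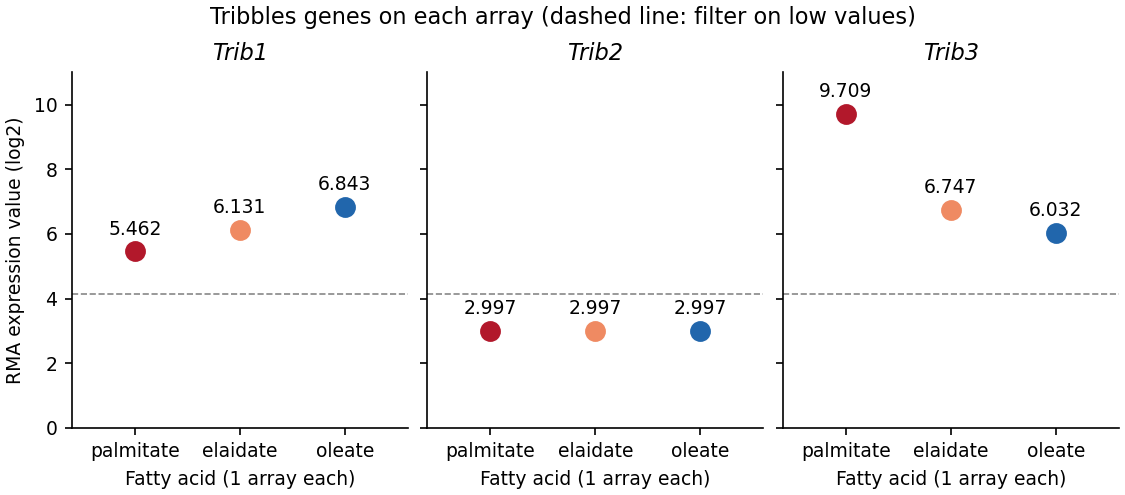
RMA expression values (log2, vertical axis) of Trib1, Trib2 and Trib3 on the palmitate, elaidate and oleate arrays, 1 point per array, with the filter on low values at 4.14 as a dashed line. Trib3 is highest on the palmitate array at 9.71, Trib1 is lowest there at 5.46, and Trib2 is 2.997 on every array.

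Of the genes past the filter, 2.87% differed at least 2-fold between palmitate and oleate, 1.65% higher and 1.22% lower on the palmitate array. Between palmitate and elaidate 1.85% did, 0.978% higher and 0.871% lower, and between elaidate and oleate 0.106% did, all of them higher on the elaidate array. The median difference over all genes was 0 in each comparison, and the standard deviation over genes was 0.38, 0.33 and 0.13 on the log2 scale in the same order. Trib3 was past 2-fold in both palmitate comparisons and Trib1 in palmitate against oleate alone. Neither was past 2-fold between elaidate and oleate. The members were chosen on these contrasts, so nothing is read from their count or their size against the background. The comparisons share arrays in pairs, so their values for 1 gene are not independent of each other.

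**Figure D2:**
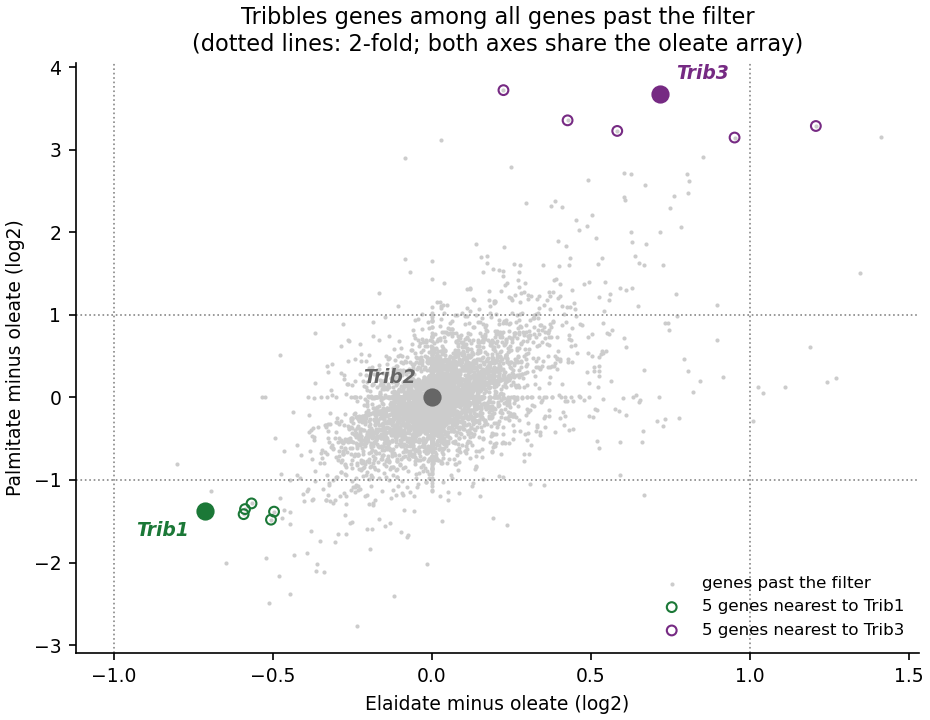
Log2 difference of palmitate minus oleate (vertical axis) against elaidate minus oleate (horizontal axis), 1 grey point per gene past the filter, with dotted lines at 2-fold and open circles for the 5 genes nearest to Trib1 and to Trib3. Trib3 lies at 0.72 and 3.68, Trib1 at -0.71 and -1.38, and Trib2, which is below the filter, at 0 on both axes; both axes share the oleate array.

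The genes whose pattern over the 3 arrays was most like that of each member were found by the distance between their pairs of log2 differences from oleate. Nearest to Trib1 were Soga1 at a distance of 0.12, Dok3, an adaptor that restrains immune receptor signalling, at 0.13 and Rnf145, a ubiquitin ligase of the endoplasmic reticulum, at 0.17. The myeloid transcription factor gene Irf8 followed at 0.22 and the complement gene C1qa at 0.23. Irf8 had a log2 value of 7.95 under palmitate, 8.84 under elaidate and 9.34 under oleate. Dok3 had 6.68 under palmitate, 7.44 under elaidate and 8.03 under oleate. Like Trib1, all 5 had their lowest value under palmitate and their middle value under elaidate, as the choice by distance requires.

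Genes near Trib3 lay farther away. The growth arrest gene Gadd45a was at a distance of 0.43, the macrophage growth factor gene Csf1 at 0.47 and the orphan receptor gene Gprc5a at 0.49. Rgs1, which shortens G protein signals, was at 0.58 and Slc1a4, a neutral amino acid transporter, at 0.63. Gadd45a had a log2 value of 10.19 under palmitate, 7.26 under elaidate and 6.83 under oleate. Slc1a4 had 7.95 under palmitate, 5.87 under elaidate and 4.66 under oleate. Among the genes nearest to Trib3, elaidate minus oleate ran from 0.22 for Gprc5a to 1.21 for Slc1a4, around the 0.72 of Trib3.

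**Figure D3:**
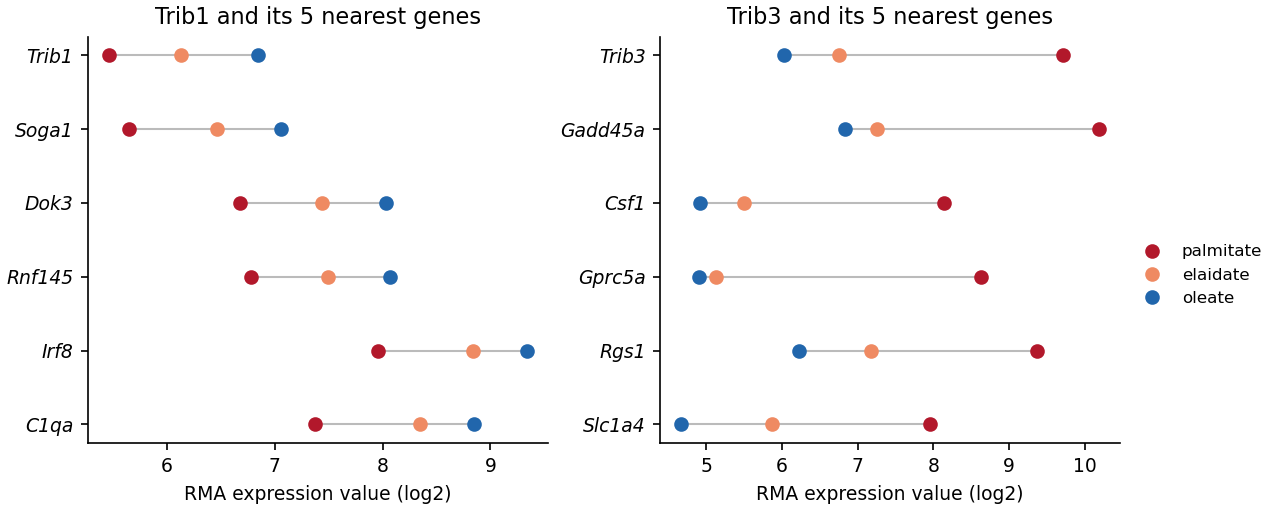
RMA expression values (log2, horizontal axis) of Trib1 and Trib3 and of the 5 genes nearest to each, with palmitate, elaidate and oleate arrays as coloured points, 1 array each. Elaidate lies between palmitate and oleate for every gene drawn, near the middle for Trib1 (6.13) and close to oleate for Trib3 (6.75).

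The inducers of Trib3 and genes listed with them come first among the pathway genes. The list is wider than inducers, as it holds Ppp1r15a, of a phosphatase that reverses eIF2α phosphorylation, and the repressor gene Atf3. Of 13 listed, 11 were measured and passed the filter; Ddit3, which encodes CHOP, and Eif2s1 were not analysed here. Between palmitate and oleate 7 were higher, 5 of these by at least 2-fold, 2 were lower and 2 equal. Of all genes past the filter, 30.9% were higher, 1.65% by at least 2-fold, 36.8% lower and 32.3% equal. The median of the 11 was 0.48, beside 0 for all genes. The gene of the phosphatase subunit that reverses eIF2α phosphorylation, Ppp1r15a, had 8.12 under palmitate, 5.04 under elaidate and 5.01 under oleate, a difference of 3.12 for palmitate minus oleate and 0.03 for elaidate minus oleate. Nupr1, a stress-induced chromatin protein gene, had 10.49 under palmitate, 8.43 under elaidate and 7.58 under oleate. Atf4 itself had 9.95 under palmitate, 9.07 under elaidate and 8.34 under oleate. Ppp1r15a was nearly equal on the elaidate and oleate arrays, whereas Nupr1 and Atf4 were higher on the elaidate array, by 0.85 and 0.73, as Trib3 was.

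Atf3, a stress-induced repressor gene, differed by 1.30 between palmitate and oleate, and Cebpg, whose protein pairs with ATF4, by 1.07. The eIF2α kinases stood near 0. Eif2ak3, the kinase of the endoplasmic reticulum, and Eif2ak4, the sensor of amino acid lack, were equal on all arrays. Eif2ak1, the haem-regulated kinase, and Eif2ak2, the sensor of double-stranded RNA, stood at -0.12 and -0.13 for palmitate minus oleate. These kinases are switched on by phosphorylation, which an expression array does not measure.

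Of 18 listed ATF4 target genes, 16 were measured and 12 passed the filter. All 12 had higher values under palmitate than under oleate, beside 30.9% of all genes. Their median was 1.30, and 8 were past 2-fold, beside 1.65% of all genes. The lowest oleate value among the 12 was 5.13, for Chac1, so none passed through its palmitate value alone. Against elaidate all 12 were also higher, 6 at least 2-fold, beside 27.9% and 0.978% of all genes, with a median of 1.09. Under elaidate 11 were higher than under oleate and 1 lower, beside 31.5% and 24.3% of all genes. None of the 12 was past 2-fold there, and the median was 0.38, or 0.19 without the filter. Palmitate minus oleate ran from 0.63 to 2.71 over the 12 genes past the filter. Trib3 stood at 3.68, and nothing is read from its place above them, because it was chosen on this contrast. The lists of targets and inducers were themselves chosen with earlier results of these data known. Their counts beside all genes are therefore a description and not an independent observation.

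Sesn2, a brake on the growth kinase mTORC1, had a log2 value of 9.36 under palmitate, 7.28 under elaidate and 6.65 under oleate. Cth, an enzyme of cysteine synthesis, differed by 2.70 between palmitate and oleate, Chac1, which degrades glutathione, by 2.47 and the cystine carrier Slc7a11 by 1.86. Pck2, the mitochondrial phosphoenolpyruvate carboxykinase and the gene with the same motif letters as Trib3, had 9.08 under palmitate, 7.90 under elaidate and 7.23 under oleate. Its difference was 1.85 for palmitate minus oleate and 0.67 for elaidate minus oleate. Herpud1, of endoplasmic reticulum degradation, stood at 1.39, the oxidoreductase Ero1a at 1.22 and the asparagine synthetase Asns at 1.10. The 4 targets below the filter were Vldlr, Stc2, Fgf21 and Phgdh, and the first 3 had equal values on all arrays, Vldlr and Fgf21 among the genes that hold TGATGCAA.

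The mRNAs of the ligase through which Tribbles proteins act differed little between the arrays, as those of most genes did. All 7 genes of the COP1 ligase, its adaptors and its cullins passed the filter. Between palmitate and oleate 2 were higher, 3 lower and 2 equal, beside 30.9%, 36.8% and 32.3% of all genes. The median of the 7 was 0 and the range -0.20 to 0.09. Cop1, the ligase itself, had 8.51 under palmitate, 8.69 under elaidate and 8.69 under oleate. The lowest difference was that of Ddb1, the cullin adaptor, at -0.20. None was 2-fold different in any comparison, and between palmitate and oleate 2.87% of all genes were. These 7 genes are too few to be set against such shares.

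Among the C/EBP family, 5 of 7 genes were measured and passed the filter. Cebpa, whose protein TRIB1 and TRIB2 send to degradation, had 5.07 under palmitate, 5.39 under elaidate and 5.20 under oleate. Its mRNA was thus lowest on the array where Trib1 was lowest, by a log2 difference of -0.13 from oleate. Cebpb, of the inflammatory and stress response, had 9.24 under palmitate, 8.62 under elaidate and 8.76 under oleate. Cebpg was the 1 member past 2-fold for palmitate minus oleate, at 1.07, beside 2.87% of all genes. It stood at 0.92 for palmitate minus elaidate. Cebpd and Cebpe were equal on all arrays, and the family median was 0 for palmitate minus oleate. With a filter at the 75th percentile that median was 0.48. Protein levels of C/EBPα were not measured by these arrays.

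Of 10 other COP1 clients, 9 were measured and 7 passed the filter. Between palmitate and oleate 4 were higher and 3 lower, with a median of 0.10. Of all genes past the filter, 30.9% were higher, 36.8% lower and 32.3% equal. Etv1 was the 1 client past 2-fold, beside 2.87% of all genes. The ETS factors among the clients differed in direction. Etv1 stood at 1.22 and Ets2 at 0.51, while Etv5 stood at -0.63 and Etv4 at -0.49. Acaca, the acetyl-CoA carboxylase that TRIB3 and COP1 degrade in mouse fat, had 7.04 under palmitate, 7.86 under elaidate and 7.43 under oleate. Acaca mRNA was lowest on the palmitate array, where Trib3 was highest. It was higher under elaidate than under oleate, by 0.43, and Trib3 was also higher there. The degradation concerns the protein, which these arrays did not measure.

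AKT and MEK kinases bind Tribbles proteins. Of 5 such genes past the filter, 3 were lower and 2 equal under palmitate against oleate, with a median of -0.10. None was past 2-fold, beside 2.87% of all genes. Of all genes past the filter, 36.8% were lower, 32.3% equal and 30.9% higher, and 5 genes are too few to be set against these shares. Akt1 had 9.25 under palmitate, 9.85 under elaidate and 9.99 under oleate, a difference of -0.74 for palmitate minus oleate. Map2k2, which encodes a MEK kinase, stood at -0.27, and Map2k1 was equal on all arrays. Of the FOXO factors, which TRIB2 restrains in human melanoma, Foxo3 stood at -0.14 and Foxo1 and Foxo4 were equal on all arrays. Foxo6 was below the filter.

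**Figure D4:**
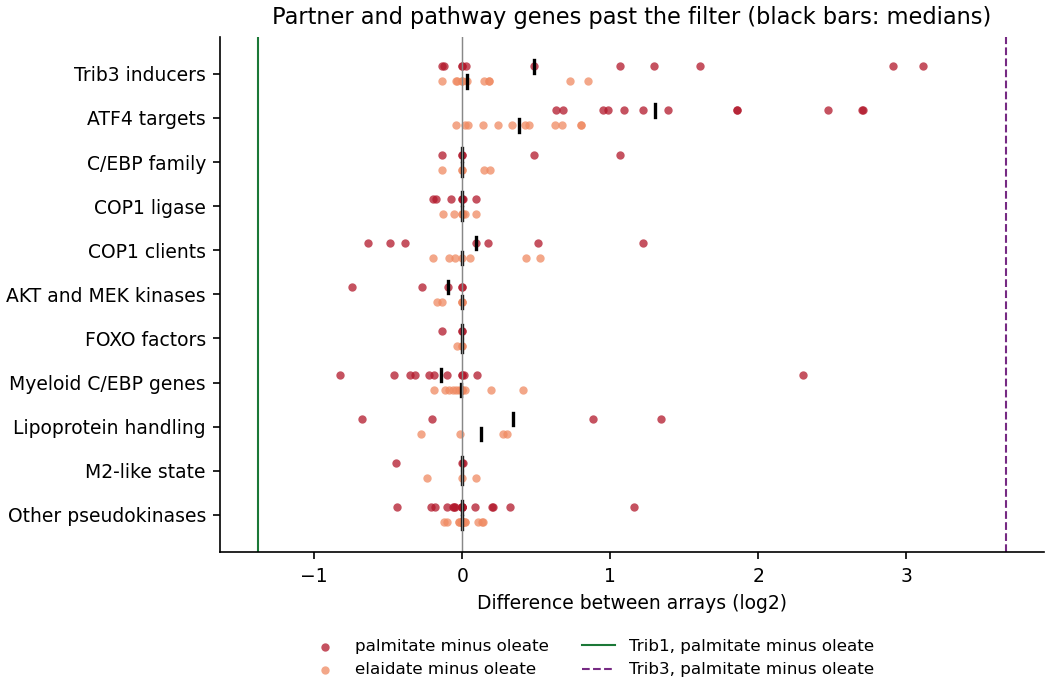
Log2 differences of the partner and pathway genes past the filter (horizontal axis) by list, for palmitate minus oleate and elaidate minus oleate, 1 point per gene, with black bars for medians and vertical lines for Trib1 (-1.38) and Trib3 (3.68). All ATF4 targets lie right of 0 for palmitate minus oleate with a median of 1.30, and the medians of the COP1 ligase and FOXO lists lie at 0.

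Of 17 myeloid genes with C/EBP-dependent promoters, 12 passed the filter. Under palmitate against oleate 3 were higher, 7 lower and 2 equal, beside 30.9%, 36.8% and 32.3% of all genes, and their median was -0.14. Without the filter that median was 0. Lcn2, an iron-binding protein gene of the acute response, was the gene past 2-fold, beside 2.87% of all genes. It had 11.71 under palmitate, 9.82 under elaidate and 9.41 under oleate. The lysozyme gene Lyz2 had 10.83 under palmitate, 11.47 under elaidate and 11.66 under oleate. The receptor gene Csf1r stood at -0.46 for palmitate minus oleate, while Csf1, which encodes its ligand and is near Trib3 in pattern, stood at 3.23. Of the 7 lower genes, 5 (Lyz2, Csf1r, Cd14, Itgam and Fcgr1) are also among the macrophage markers. Of the 10 markers, 8 were lower under palmitate than under oleate and 2 were equal. Their median was -0.35 for palmitate minus oleate and -0.04 for elaidate minus oleate, where Trib1 stood at -1.38 and -0.71. The part of these markers in the Trib1 difference was not tested.

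Few listed genes of the alternatively activated state that depends on Trib1 in mouse tissues passed the filter. Of 15, 12 were below it, among them Arg1, Mrc1 and Retnla. The filter is a median, so it leaves out 9410 of all 18820 genes by construction. Kdm6b, also below it by its mean, had 4.31 under palmitate and 3.84 under elaidate and oleate. The 3 that passed were Mgl2 and Clec10a, both lectin genes, and the scavenger receptor gene Stab1. Stab1 had 7.23 under palmitate, 7.44 under elaidate and 7.68 under oleate, the same order as Trib1 over a narrower range. Mgl2 had 8.86 under palmitate, 8.95 under elaidate and 8.86 under oleate.

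Genes of lipoprotein uptake and sterol efflux went both ways. Of 8, 7 were measured and 4 passed the filter; Olr1, the oxidised lipoprotein receptor gene that myeloid TRIB1 raises in the mouse, was below it and equal on all arrays. Between palmitate and oleate 2 were higher and 2 lower, beside 30.9% and 36.8% of all genes. Past 2-fold was 1 of the 4, beside 2.87% of all genes. Scarb1, a receptor gene for high-density lipoprotein, had 9.15 under palmitate, 10.14 under elaidate and 9.83 under oleate. It was thus lowest under palmitate, as Trib1 was, but higher under elaidate than under oleate. The sterol exporter genes Abcg1 and Abca1 differed by 1.34 and 0.89 between palmitate and oleate and by 1.07 and 1.17 between palmitate and elaidate.

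Of 25 other pseudokinases listed, 24 were measured and 18 passed the filter. Between palmitate and oleate 6 were higher, 7 lower and 5 equal, close to the 30.9%, 36.8% and 32.3% of all genes. The median of the 18 pseudokinases was 0. The 1 past 2-fold, beside 2.87% of all genes, was Stk40, a relative of the Tribbles whose protein also binds COP1. It had 7.79 under palmitate, 6.64 under elaidate and 6.63 under oleate, or 1.16 higher under palmitate than under oleate on the log2 scale. Unlike Trib3, Stk40 differed by 0.02 between elaidate and oleate. The next in size was Ryk, a receptor pseudokinase, at -0.44.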

How the data were processed

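RNA of 3 RAW264.7 cultures was hybridised to Affymetrix whole-transcript arrays, per the labels' protocols. The authors deposited 1 log2 value for each probe set and array. RMA produced them, per the submitters' processing notes; its version is not given here. They were used unchanged. Of 35556 probe sets, 21218 had 1 symbol in the platform annotation, 1881 several and 12457 none listed; the first kind was used, with symbols updated by gene identifier. Probe sets of a gene were averaged. Arrays have no read depth, and their number limits the precision.

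Differences of log2 values were computed for 3 comparisons, and those past the filter and past 2-fold were counted. The counting was tested on simulated data. Named genes are the members, the 5 nearest to each member that was at least 1.5-fold different, and list members at least 2-fold different, or otherwise the 2 furthest from 0. Other list members were named after their values were seen. The members and the 11 lists were chosen with earlier results of these data known. Promoter sequences are from RefSeq, and the motifs were chosen with these promoters already seen. Python 3.11.15, numpy 2.4.6, pandas 2.3.3, matplotlib 3.10.9, R 4.3.3 and limma 3.58.1 (cyclic loess, span 0.7, 3 iterations) were used.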

Additional observations from a re-analysis of the deposited data

How the results depend on the processing

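All 9 differences of Trib1, Trib2 and Trib3 stayed within 0.04 on the log2 scale under centring on array medians and cyclic loess. Centring moves every gene by the same amount in a comparison, here by at most 0.04. Each member has 1 probe set, so use of the probe set with the highest mean could not change its values. Trib1 and Trib3 could not be lost without a filter or with one on the highest of the 3 values, because their means pass. A filter at the 75th percentile kept Trib3 and left out Trib1. That filter left 157 genes 2-fold different between palmitate and oleate and 96 between palmitate and elaidate, against 270 and 174 as reported. At 1.5-fold, 875 genes differed between palmitate and oleate, 716 between palmitate and elaidate and 74 between elaidate and oleate. At 3-fold these counts were 81, 48 and 0. Centring gave 91 genes higher and 99 lower between palmitate and elaidate, and the 1.5-fold limit 299 and 417, against 92 and 82 as reported. The list medians depended on the filter. Without it, 8 of 33 moved by more than 0.1: that of the ATF4 targets was 1.04 for palmitate minus oleate and 0.19 for elaidate minus oleate, and that of the myeloid C/EBP genes was 0 for palmitate minus oleate. With the 75th percentile filter 9 of 30 did, and that of the C/EBP family was 0.48 for palmitate minus oleate. The list medians under centring and loess moved by less than 0.1. No paired analysis was possible because each fatty acid has 1 array. No array could be left out, and no p-value was computed.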

Other observations

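Genes with equal values on all arrays were also counted in the lists around the Tribbles genes. Counting each gene once, 18 of 85 list genes past the filter, or 21.2%, had the same value on every array, against 27.5% of all genes past it. By list these were 2 of 7 COP1 ligase genes, 2 of 5 C/EBP genes and 2 of 5 AKT and MEK genes. They were also 2 of 3 FOXO genes, 5 of 18 pseudokinase genes and 2 of 11 genes listed with the inducers of Trib3. Of the rest they were 2 of 12 myeloid C/EBP genes and 1 of 3 genes of the alternatively activated state. There were 0 of 12 ATF4 targets, 0 of 7 other COP1 clients and 0 of 4 lipoprotein genes. The lists are too small for differences between these counts to be read as a result.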
